A study of Homo sapiens with 24 samples.

Results

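The effect of asparaginase on RNA levels was compared between Sem and Nalm6, established human lines of leukaemic B cell precursors (acute lymphoblastic leukaemia). The 12 libraries compared were chosen by their labels from 24 in the series. They form 4 groups of 3 libraries, which are Sem with asparaginase, untreated Sem, Nalm6 with asparaginase and untreated Nalm6. Treatment lasted 24 h, and the dose is given as 1 IU/ml by the design text and sample labels but as 0.5 IU/ml by the treatment text. The other 12 libraries are of the same lines with 10 µM ibrutinib, which blocks the kinase BTK of B cell receptor signalling, alone or combined with asparaginase. Sem carries a rearranged KMT2A gene, but each line stems from a single leukaemia, so an effect of the rearrangement cannot be told apart from any other trait of these 2 leukaemias. The labels describe triplicates and no separate cultures, so p-values here measure the spread between libraries, which may be technical.

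Asparaginase breaks down extracellular asparagine, which lymphoblasts take up because their own asparagine synthetase, ASNS, is usually low. When an amino acid runs short, uncharged tRNA activates the kinase GCN2, which phosphorylates the translation factor eIF2. General protein synthesis then falls while the transcription factor ATF4 is made, and ATF4, with its partner CHOP (gene DDIT3), induces genes for amino acid synthesis and import, tRNA charging and stress control.

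Recovered reads assigned to genes numbered 15.0 M to 18.1 M in each of the 12 libraries. Levels are FPKM (fragments per kilobase of gene length and sequencing depth), and a single read was worth a median of 0.0601 FPKM for a gene 1 kb long, so that depth limits low values. The deposited values of 1 FPKM and above lacked their decimal point, and each was restored from whole read counts and gene length. Whether libraries were stranded is not given in the sources used here, so overlapping and antisense genes, and near-identical copies such as HSPA1A and HSPA1B, may share reads. The labelled lines showed their known markers. HOXA9, a homeobox gene active with KMT2A rearrangements, averaged 27.7 ± 0.930 with asparaginase and 28.7 ± 1.20 FPKM untreated in Sem (SD, n = 3 each) and had 0 reads in Nalm6. MME, the gene of the CD10 antigen that KMT2A-rearranged leukaemia lacks, averaged 0.00239 with asparaginase and 0.00657 FPKM untreated in Sem, against 118 ± 3.89 with asparaginase and 101 ± 3.84 FPKM untreated in Nalm6. PAX5, a transcription factor of the B lineage, averaged 135 ± 3.84 with asparaginase and 90.4 ± 5.601 FPKM untreated in Sem, against 147 ± 12.4 with asparaginase and 92.4 ± 7.45 FPKM untreated in Nalm6. Of the markers of other blood cells, CD3D, CD3E, ELANE and S100A8 had 0 reads in all 12 libraries, but TRAC averaged 87.6 with asparaginase and 93.3 FPKM untreated in Sem, and LYZ 4.19 with asparaginase and 13.04 FPKM untreated in Nalm6.

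For each gene the asparaginase effect is the log2 change of FPKM + 1 against untreated cells of the same line, and the line difference is the effect in Sem minus that in Nalm6. A positive difference thus means that the gene rose more, or fell less, in Sem. In such bulk samples, fewer cells of a type and less RNA per cell cannot be told apart. The log2 scale with 1 FPKM added understates the change of genes with low FPKM. Both lines raised the ATF4 pathway and lowered sterol synthesis and division genes, and opposite responses were fewer than differences of size. Nalm6 responded in more genes and with larger falls of chaperone, proteasome, DNA replication and MYC-induced genes, while Sem had larger rises of ATF5, CHAC1 and the enzymes of serine synthesis. Of the 14 tested genes of the quiescence list, 4 fell in Sem and rose in Nalm6, among them YPEL3 and CCNG2. With ibrutinib present the changes of YPEL3 and CCNG2 in Sem were not called.

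Asparaginase changed 3370 of 15116 genes tested in Sem (22.3%, limma adjusted p under 0.05, 1584 higher and 1786 lower) and 8109 in Nalm6 (53.6%, 4147 higher and 3962 lower). After TPM rescaling, which moved the median of all genes by 0.062 in Sem and 0.11 in Nalm6 on the log2 scale, the split was 2591 higher and 919 lower in Sem and 5623 higher and 2761 lower in Nalm6. The number of genes that changed by at least 2-fold on this scale was 66 up and 9 down in Sem, against 303 up and 224 down in Nalm6. The line difference itself was called for 5062 genes (33.5%), positive for 2684 (17.8%) and negative for 2378 (15.7%), and reached a log2 size of 1 for 110 and 173 of them. Across 11348 genes with a group mean of at least 1 FPKM in both lines, the effects in Sem and Nalm6 correlated at r = 0.55, a description across genes that share libraries and are not independent. Of the 2521 genes called in both lines, 74.8% of those called in Sem and 31.1% of those called in Nalm6, 977 rose in both, 1358 fell in both and 186 had opposite signs.

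The 5062 differences were divided by what each line did. Of these genes, 758 were expressed in a single line, 306 in Sem and 452 in Nalm6, and had no group mean of 1 FPKM in the other. A further 47 passed the filter but had no group mean of 1 FPKM in the libraries compared. Among genes expressed in both lines, 1148 changed the same way and more in Nalm6, and 62 changed the same way and more in Sem. Another 2618 were called in Nalm6 alone, 164 in Sem alone and 91 in neither line. Opposite responses, called in each line with opposite signs and in the difference, were found for 174 genes (1.15% of those tested). Of these, 91 rose in Sem and fell in Nalm6, with median effects of 0.23 and -0.27, and 83 fell in Sem and rose in Nalm6, with medians of -0.27 and 0.32. Asparaginase and untreated libraries did not overlap in either line for 79 of the 91 and 76 of the 83. These genes were selected by calls on the same libraries, so this separation is not separate evidence. The share without overlap over all genes tested was not counted. Both effects reached 0.5 on the log2 scale in 11 of the 174, 3 that rose in Sem and 8 that rose in Nalm6.

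**Figure D1:**
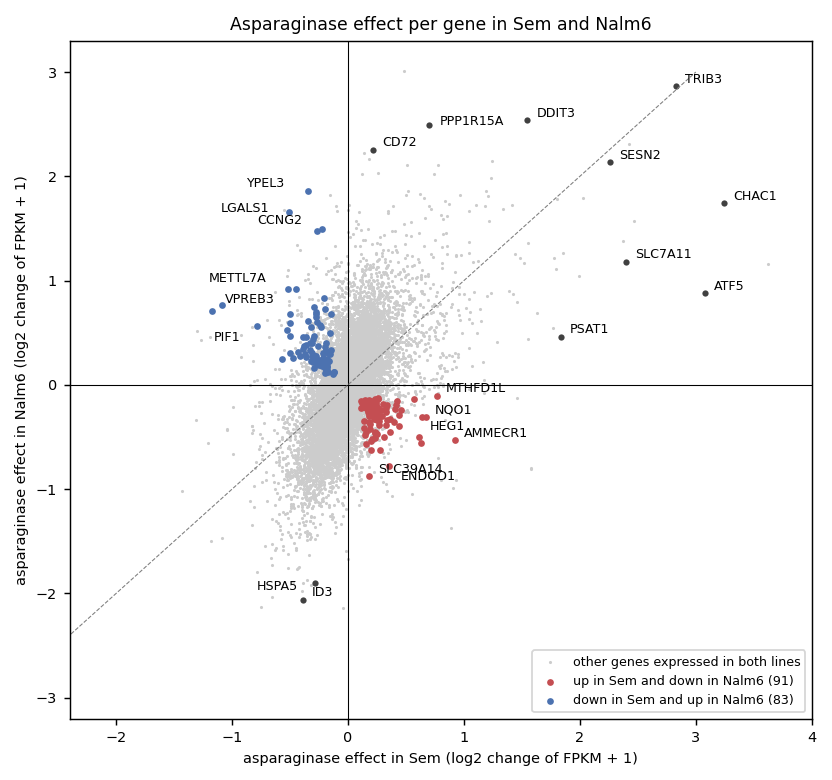
Asparaginase effect in Sem (horizontal) against that in Nalm6 (vertical), both as the log2 change of FPKM + 1, for 11348 genes expressed in both lines. The 91 genes that rose in Sem and fell in Nalm6 (red) and the 83 that did the reverse (blue) lie mostly near 0, while TRIB3 and SESN2 lie near the dashed line of equal effect, ATF5 and CHAC1 below it and PPP1R15A and CD72 above it.

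Of the 91 genes that rose in Sem and fell in Nalm6, AMMECR1 (ENSG00000101935, chromosome X, 110194186 to 110440233, minus strand, GRCh38) had the largest difference. This gene, named for an X-linked deletion syndrome, had 16.4, 16.9 and 17.2 FPKM in Sem with asparaginase and 8.01, 8.54 and 8.66 in untreated Sem, against 9.91, 9.38 and 8.79 in Nalm6 with asparaginase and 13.7, 14.03 and 14.1 in untreated Nalm6. Asparaginase groups lay apart from untreated ones in both lines, above in Sem and below in Nalm6, and the line difference was 1.46 ± 0.063 (log2, SE, adjusted p = 7.4e-12). HEG1 (ENSG00000173706, chromosome 3, 124965710 to 125055958, minus strand), a membrane receptor of endothelial junctions, had 6.23, 6.05 and 5.73 FPKM with asparaginase and 3.49, 4.002 and 3.302 untreated in Sem, and 2.05, 1.85 and 2.17 with asparaginase and 3.68, 2.84 and 3.34 untreated in Nalm6. Its groups did not overlap either, and its difference was 1.11 ± 0.098 (adjusted p = 8.2e-08). SLC39A14, an importer of zinc, iron and manganese, rose slightly in Sem, to 32.0, 31.4 and 31.9 FPKM with asparaginase, against 28.2, 26.6 and 28.7 in untreated cells. In Nalm6 it fell to 9.90, 10.9 and 10.1 FPKM with asparaginase, against 19.5, 19.7 and 20.2 in untreated cells, so most of its difference of 1.06 ± 0.062 (adjusted p = 4.3e-10) came from Nalm6. ENDOD1, named for an endonuclease domain, rose by 0.36 in Sem and changed by -0.78 in Nalm6, and BEND3, a repressor of transcription, by 0.28 and -0.62 (both with groups that did not overlap in either line).

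Smaller differences in the same direction included those of MTHFD1L, PYCR1 and NQO1. MTHFD1L (ENSG00000120254, chromosome 6, 150865549 to 151101887, plus strand), which releases formate from the mitochondrial one-carbon pathway, had 28.6, 30.3 and 30.1 FPKM with asparaginase and 17.5, 16.1 and 17.6 untreated in Sem, where it rose, against 31.1, 32.5 and 31.4 with asparaginase and 34.3, 33.3 and 34.7 untreated in Nalm6. Its change in Nalm6 was -0.11 (adjusted p = 0.025) and its difference 0.87 ± 0.053 (adjusted p = 8.2e-10). PYCR1, the last enzyme of proline synthesis, had 59.1, 61.5 and 63.9 FPKM with asparaginase and 41.2, 37.5 and 38.6 untreated in Sem, and 31.3, 38.4 and 39.8 with asparaginase and 47.9, 39.6 and 49.1 untreated in Nalm6. The Nalm6 groups overlapped by 1 library, and the difference was 0.95 ± 0.11 (adjusted p = 3.1e-06). NQO1, a quinone reductase of the NRF2 pathway, had 13.1, 10.8 and 11.7 FPKM with asparaginase and 6.45, 7.04 and 7.77 untreated in Sem, against 1.35, 1.47 and 1.87 with asparaginase and 2.43, 1.86 and 2.26 untreated in Nalm6. Its Nalm6 groups also overlapped, and its difference was 0.98 ± 0.13 (adjusted p = 1.3e-05). YARS, the tyrosyl-tRNA synthetase, changed by 0.57 in Sem and -0.14 in Nalm6, and CDK6, a kinase of the G1 phase and a known target of KMT2A fusions, by 0.23 and -0.29. Under TPM rescaling, quantile normalization, voom on recovered reads and a GC and length correction, MTHFD1L, PYCR1, YARS and CDK6 each kept their opposite call in 2 of these 4 and NQO1 in 3, while AMMECR1, HEG1, SLC39A14, ENDOD1 and BEND3 kept it in all 4.

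Of the 83 genes that fell in Sem and rose in Nalm6, YPEL3 and LGALS1 had the largest differences. YPEL3 (ENSG00000090238, chromosome 16, 30092314 to 30096915, minus strand), a small protein linked to growth arrest, had 10.3, 10.8 and 11.3 FPKM in Sem with asparaginase and 15.2, 12.8 and 14.1 in untreated Sem, against 6.51, 7.65 and 8.07 in Nalm6 with asparaginase and 1.16, 1.68 and 1.12 in untreated Nalm6. The difference was -2.21 ± 0.13 (adjusted p = 4.7e-10), with no overlap of groups in either line. CCNG2, a cyclin that slows division and is induced by FOXO factors, had 7.85, 7.07 and 7.39 FPKM with asparaginase and 8.66, 8.65 and 9.20 untreated in Sem, against 9.28, 8.99 and 8.59 with asparaginase and 2.92, 2.69 and 2.06 untreated in Nalm6. The CCNG2 difference was -1.71 ± 0.11 (adjusted p = 8.8e-10). BTG2, an antiproliferative p53 target, had 7.92, 6.38 and 8.32 FPKM with asparaginase and 10.0, 8.87 and 8.73 untreated in Sem, and 26.6, 25.9 and 26.5 with asparaginase and 9.32, 8.88 and 8.37 untreated in Nalm6. In Sem both genes fell by little, at adjusted p = 0.040 for CCNG2 and 0.024 for BTG2, and each kept its opposite call in 3 of the 4 other scalings. CDKN1A (ENSG00000124762, chromosome 6, 36676460 to 36687339, plus strand), the cyclin-dependent kinase inhibitor p21, had 41.1, 43.6 and 45.3 FPKM in Sem with asparaginase and 58.8, 59.8 and 59.9 in untreated Sem, against 78.4, 88.2 and 84.6 in Nalm6 with asparaginase and 43.2, 41.2 and 47.0 in untreated Nalm6. Untreated Sem had more CDKN1A than untreated Nalm6, the order was reversed with asparaginase, and the difference was -1.37 ± 0.10 (adjusted p = 6.8e-09).

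LGALS1 (ENSG00000100097, chromosome 22, 37675608 to 37679806, plus strand), the lectin galectin-1, was far higher in Sem, with 92.2, 95.6 and 108 FPKM in Sem with asparaginase and 147, 131 and 142 in untreated Sem, and 8.66, 8.41 and 9.30 in Nalm6 with asparaginase and 2.05, 1.7 and 2.59 in untreated Nalm6. It fell in Sem and rose in Nalm6 without overlap, and its difference was -2.17 ± 0.14 (adjusted p = 1.2e-09). VPREB3, a pre-B cell protein that binds immunoglobulin heavy chains, had 8.92, 7.06 and 9.33 FPKM with asparaginase and 12.5, 10.8 and 13.8 untreated in Sem, against 131, 146 and 137 with asparaginase and 83.7, 81.1 and 92.2 untreated in Nalm6. The VPREB3 difference was -1.19 ± 0.13 (adjusted p = 7.5e-07). METTL7A, a membrane-bound methyltransferase, changed by -0.52 in Sem and 0.92 in Nalm6, and PIF1, a DNA helicase, by -0.78 and 0.56. TM7SF2, a sterol reductase, changed by -0.34 in Sem and 0.62 in Nalm6, and MXD3, a MAX partner that opposes MYC, by -0.36 and 0.39. All 6 genes of this paragraph, and YPEL3 and CDKN1A, kept their opposite call in all 4 other scalings. Of the 174 opposite genes, 54 did so, 26 of the 91 that rose in Sem and 28 of the 83 that fell there.

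**Figure D2:**
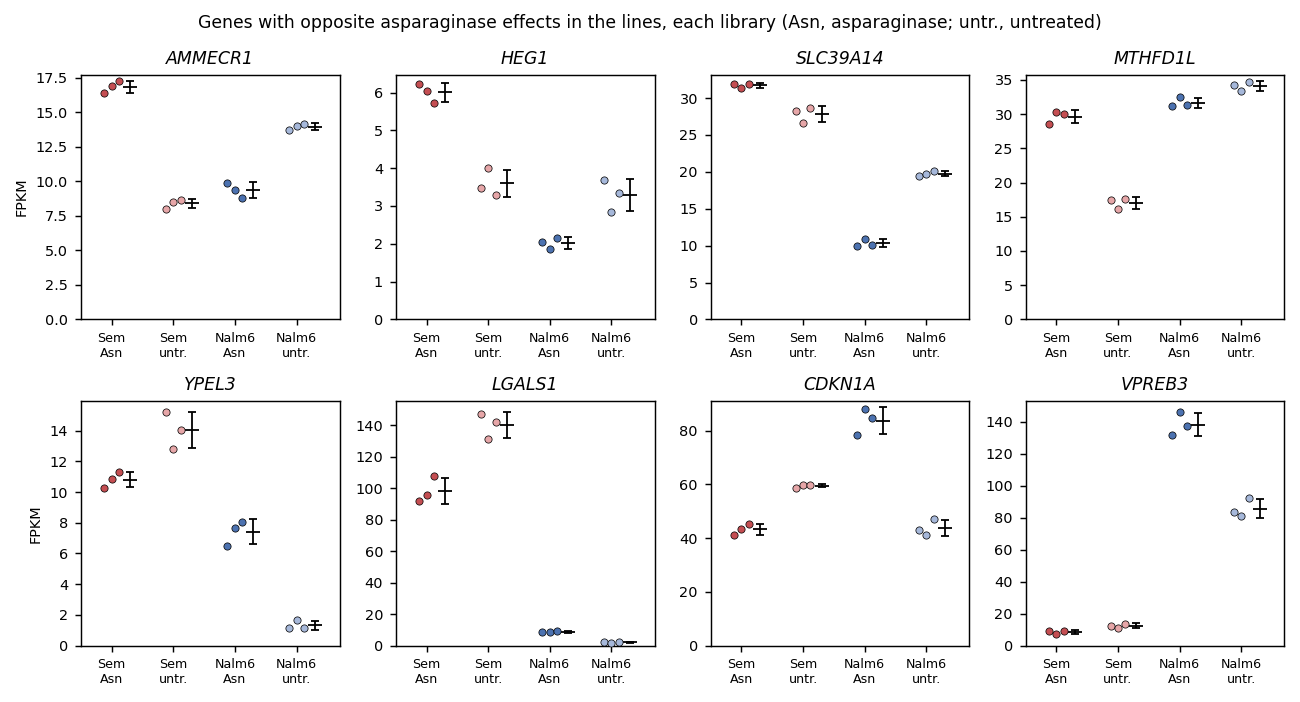
FPKM (vertical axes, each starting at 0) of 8 genes with opposite effects in the 12 libraries. Points are libraries and the bar beside them is the mean with its SD (n = 3). In the upper row the level with asparaginase is higher than untreated in Sem and lower in Nalm6, and in the lower row the reverse holds.

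The same difference could be measured in 12 other libraries, as the change from ibrutinib alone to the combination with asparaginase in Sem minus that in Nalm6, a comparison added after the data had been seen. In these libraries 5959 of 15116 genes were called in the difference (39.4%), 3027 positive (20.0%) and 2932 negative (19.4%). Of the 91 genes that rose in Sem and fell in Nalm6, 88 kept a positive difference and 75 were called with it, and of the 83 in the other direction 80 kept a negative difference and 73 were called. None was called with the other sign, a count that covers these 174 genes by limma at an adjusted p under 0.05. Keeping the sign was not particular to the opposite genes. Of 1148 genes that changed the same way and more in Nalm6, 1126 kept it and 5 were called with the other sign. For the 2618 called in Nalm6 alone these were 2530 and 12. For the 62 that changed more in Sem they were 53 and 3, and for the 164 called in Sem alone 140 and 3. The sizes of the effects within each line were less alike, and 12 of the 91 and 12 of the 83 were again called with opposite signs in both lines. AMMECR1 kept a difference of 0.68 (adjusted p = 1.1e-07), with a mean of 11.1 ± 0.326 FPKM in the Sem combination against 6.91 ± 0.204 in Sem with ibrutinib, and 10.2 ± 0.535 against 10.7 ± 0.417 in Nalm6. YPEL3 (-1.96), LGALS1 (-2.31), CCNG2 (-1.69) and METTL7A (-1.80) also kept theirs. Their opposite calls were not repeated, since with ibrutinib present their changes in Sem were not called. These changes were 0.10 for YPEL3, -0.15 for LGALS1, -0.029 for CCNG2 and -0.19 for METTL7A (adjusted p = 0.58, 0.42, 0.89 and 0.13). For AMMECR1 the change in Nalm6 was not called (-0.065, adjusted p = 0.24). VPREB3 did not, at -0.052 (adjusted p = 0.78), and neither did NQO1, at 0.23 (adjusted p = 0.19). Over the 11348 genes expressed in both lines the differences from the 2 sets of libraries correlated at r = 0.73, again a description across genes.

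**Figure D3:**
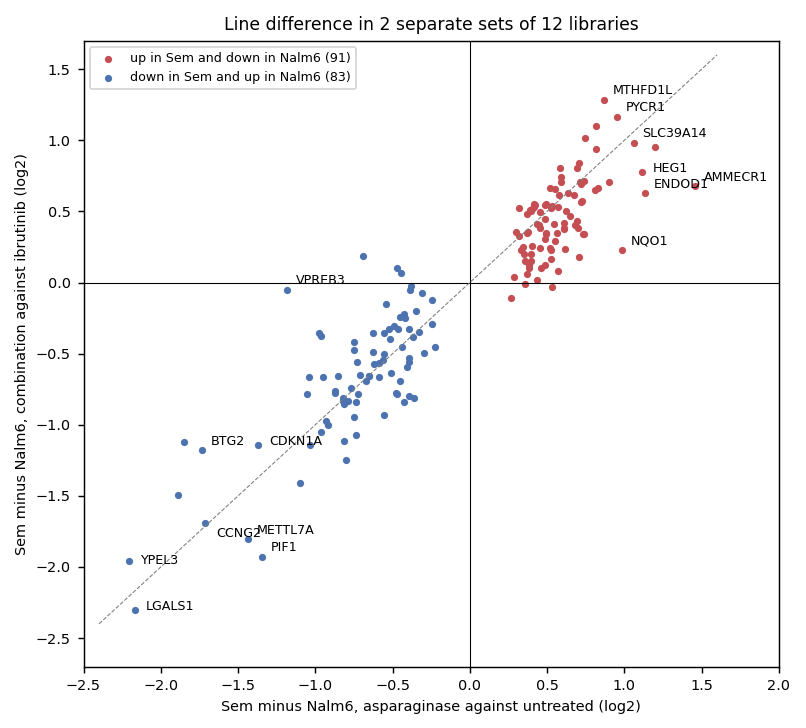
Line difference (Sem minus Nalm6, log2) of the 174 opposite genes for asparaginase against untreated cells (horizontal) and for the combination against ibrutinib (vertical), from separate libraries. Of the 91 red genes 88 lie above 0 and of the 83 blue genes 80 lie below 0, VPREB3 sits near 0 on the vertical axis, and the dashed line marks equal differences.

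The ATF4 pathway rose in both lines and its members differed in size, not direction. Of 16 tested genes of the ATF4 and CHOP list, 14 rose and 0 fell in Sem, against 16 and 0 in Nalm6. The difference was positive for 6 and negative for 7, and its median of -0.058 (all genes tested -0.0064) turned to 0.093 with voom on recovered reads. Among transcription factors, ATF5 (ENSG00000169136, chromosome 19, 49928702 to 49933935, plus strand), which ATF4 induces, had 105, 107 and 112 FPKM in Sem with asparaginase and 12.2, 11.1 and 12.6 in untreated Sem, against 255, 273 and 275 in Nalm6 with asparaginase and 151, 134 and 151 in untreated Nalm6. Its rise was larger in Sem, from a lower untreated level (difference 2.20 ± 0.080, adjusted p = 6.5e-13), and Nalm6 with asparaginase had the highest level. DDIT3 (ENSG00000175197, chromosome 12, 57516588 to 57521737, minus strand), the gene of CHOP, had 27.8, 20.4 and 26.1 FPKM with asparaginase and 8.84, 6.90 and 7.60 untreated in Sem, and 69.6, 57.9 and 62.4 with asparaginase and 9.22, 11.2 and 9.77 untreated in Nalm6. Here Nalm6 rose more (difference -0.99 ± 0.15, adjusted p = 3.9e-05), as it did for CEBPB, a partner of these factors (-0.90 ± 0.14). ATF4 itself averaged 269.7 ± 16.6 with asparaginase and 199 ± 7.23 FPKM untreated in Sem, against 234 ± 4.86 with asparaginase and 197 ± 8.30 FPKM untreated in Nalm6. The ATF4 difference was 0.18 ± 0.065 (adjusted p = 0.037). The difference was 0.069 under quantile normalization (adjusted p = 0.37) and 0.11 under TPM rescaling (0.087), and the call was also lost with the 12 libraries alone (0.094), with no filter (0.076), without the farthest library of each group (0.21) and when any of 6 single libraries was left out (0.055 to 0.12).

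CHAC1 (ENSG00000128965, chromosome 15, 40952962 to 40956519, plus strand), an enzyme that degrades glutathione, had the largest positive difference of the list after ATF5. The 300 bases around its transcription start in RefSeq (GRCh38.p14, chr15:40953221-40953520, plus strand) are shown because they hold the 1 match to the C/EBP-ATF response element (TGATGNAA, either strand), in capitals, among the 8 named genes of the list.
CHAC1 promoter: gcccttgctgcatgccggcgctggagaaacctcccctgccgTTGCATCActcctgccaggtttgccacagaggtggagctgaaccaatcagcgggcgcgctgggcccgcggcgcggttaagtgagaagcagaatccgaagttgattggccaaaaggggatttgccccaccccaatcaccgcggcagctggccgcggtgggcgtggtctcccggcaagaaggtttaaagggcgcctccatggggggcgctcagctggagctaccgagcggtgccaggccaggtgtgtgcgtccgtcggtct
The match lies on the opposite strand and begins 209 bases before the start, and 3.62% of all 35116 promoter windows of this length hold one. CHAC1 had 23.0, 22.9 and 26.1 FPKM in Sem with asparaginase and 1.31, 1.71 and 1.92 in untreated Sem, against 15.2, 16.4 and 17.7 in Nalm6 with asparaginase and 4.04, 4.98 and 3.697 in untreated Nalm6. The groups lay far apart in both lines, and the rise was larger in Sem. The CHAC1 difference was 1.5 ± 0.18 (adjusted p = 3.0e-06). PPP1R15A (ENSG00000087074, chromosome 19, 48872392 to 48876057, plus strand), the phosphatase subunit GADD34 that reverses eIF2 phosphorylation, went the other way in size, with 12.9, 13.4 and 16.3 FPKM with asparaginase and 7.24, 9.03 and 8.82 untreated in Sem and 43.5, 44.5 and 46.3 with asparaginase and 7.02, 6.42 and 7.98 untreated in Nalm6. The PPP1R15A difference was -1.80 ± 0.12 (adjusted p = 3.6e-09).

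TRIB3 and SESN2 had rises of nearly the same fitted size. TRIB3, a pseudokinase that restrains ATF4 and CHOP, had 25.0, 22.9 and 25.3 FPKM in Sem with asparaginase and 2.54, 3.10 and 2.15 in untreated Sem, against 153, 187 and 182 in Nalm6 with asparaginase and 24.2, 20.8 and 24.0 in untreated Nalm6. The log2 difference was -0.035 ± 0.16 with a 95% interval of -0.38 to 0.31 (adjusted p = 0.90), so differences within that interval were not excluded. The TRIB3 difference depended on the scale, and was called at -0.72 with a pseudocount of 5 and at -0.44 under quantile normalization (adjusted p = 0.00015 and 0.045). SESN2, which restrains mTORC1 when leucine is short, rose by 2.26 in Sem and 2.13 in Nalm6 (difference 0.12 ± 0.13, interval -0.16 to 0.41, adjusted p = 0.52). DDIT4, another mTORC1 inhibitor, rose by 1.18 in Sem and more in Nalm6, by 1.72. The DDIT4 difference was -0.54 ± 0.084 (adjusted p = 6.5e-05). With ibrutinib present the DDIT4 difference was -0.061 (adjusted p = 0.61) and that of SESN2 was 0.52 (adjusted p = 0.0044).

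**Figure D4:**
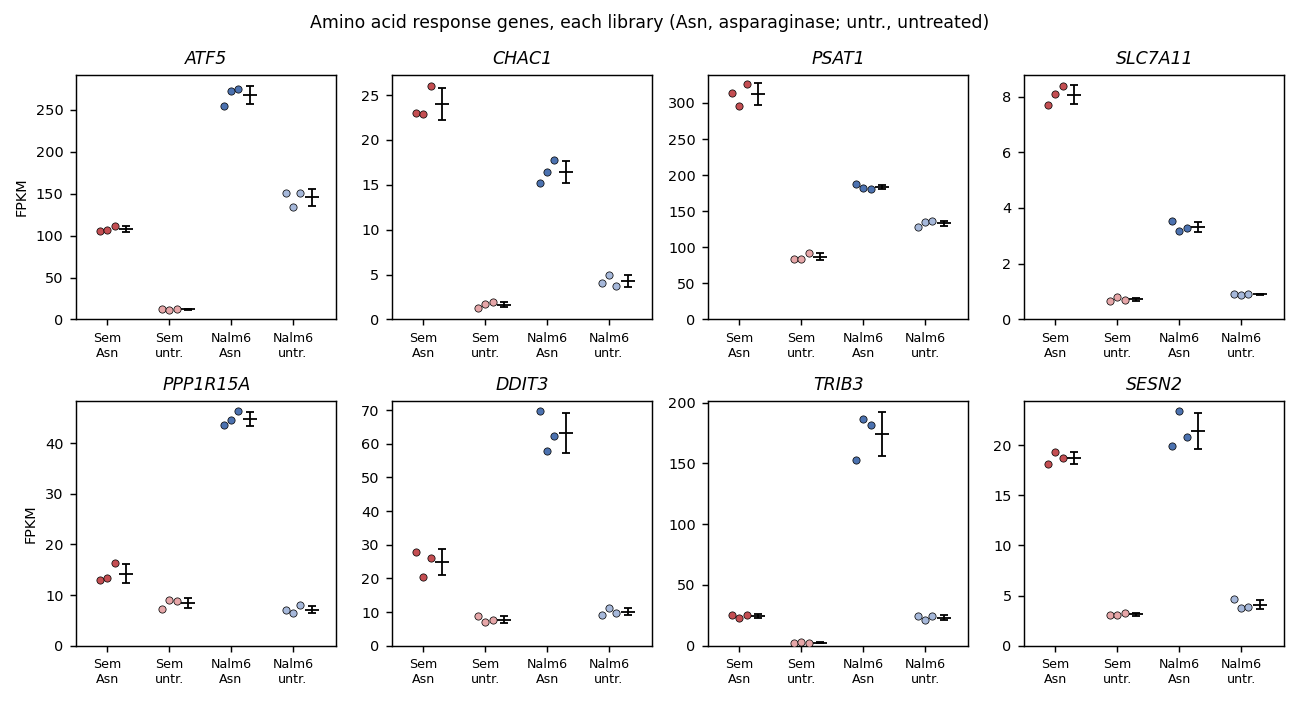
FPKM (vertical axes, each starting at 0) of 8 genes of the amino acid response in the 12 libraries, with points for libraries and the mean with its SD beside them (n = 3). All rose with asparaginase in both lines, ATF5, CHAC1, PSAT1 and SLC7A11 by a larger log2 step in Sem and PPP1R15A and DDIT3 by a larger one in Nalm6.

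Enzymes of serine synthesis rose more in Sem. Of 13 tested serine and one-carbon enzymes, the difference was positive for 10 and negative for 1, with a median of 0.64. In Sem 7 rose and 3 fell, against 6 and 5 in Nalm6, where the median was -2.0e-05 and turned to 0.12 under TPM rescaling and 0.15 under quantile normalization. PSAT1 (ENSG00000135069, chromosome 9, 78297143 to 78330093, plus strand), the serine synthesis transaminase, had 313, 296 and 326 FPKM in Sem with asparaginase and 84.0, 83.8 and 92.3 in untreated Sem, against 187, 182 and 181 in Nalm6 with asparaginase and 128, 135 and 136 in untreated Nalm6. The PSAT1 difference was 1.37 ± 0.066 (adjusted p = 3.1e-11). PHGDH, the first enzyme of serine synthesis, rose by 1.12 in Sem and 0.50 in Nalm6. The PHGDH difference was 0.62 ± 0.081 (adjusted p = 1.0e-05). The mitochondrial enzymes SHMT2 (0.68) and MTHFD2 (0.76) and the thymidylate synthase TYMS (0.64) also had positive differences, and TYMS fell in both lines. CTH, which makes cysteine from cystathionine, rose in Sem alone, to 6.30, 6.90 and 7.07 FPKM, against 3.60, 3.31 and 3.78 untreated, and had 3.08, 3.36 and 3.58 with asparaginase and 3.59, 2.99 and 3.45 untreated in Nalm6. The CTH difference was 0.77 ± 0.13 (adjusted p = 0.00018).

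ASNS, the enzyme that makes asparagine, was low in both lines. It had 1.53, 1.83 and 1.51 FPKM in Sem with asparaginase and 0.434, 0.243 and 0.219 in untreated Sem, against 1.62, 1.41 and 1.67 in Nalm6 with asparaginase and 0.6, 0.506 and 0.520 in untreated Nalm6. It rose in both lines without overlap to nearly the same level, and the small difference of 0.28 ± 0.10 (adjusted p = 0.041) lost its call under TPM rescaling (0.12) and a replicate block (0.055), among others. Of the 16 tested enzymes of asparagine, aspartate and alanine, the difference was positive for 10 and negative for 3. GPT2, the mitochondrial alanine transaminase, rose by 1.56 in Sem and 0.44 in Nalm6 (difference 1.12 ± 0.086, adjusted p = 1.1e-08), while GOT1, the cytosolic aspartate transaminase, rose more in Nalm6 (-0.67 ± 0.090, adjusted p = 1.2e-05).

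Of 15 amino acid transporters, 11 rose and 1 fell in Sem, against 9 and 3 in Nalm6, and the difference was positive for 9 and negative for 2. SLC7A11, the cystine importer, had 7.71, 8.08 and 8.396 FPKM in Sem with asparaginase and 0.651, 0.787 and 0.714 in untreated Sem, against 3.52, 3.17 and 3.27 in Nalm6 with asparaginase and 0.899, 0.889 and 0.919 in untreated Nalm6. The SLC7A11 difference was 1.22 ± 0.073 (adjusted p = 5.6e-10). Untreated Sem lay below untreated Nalm6, and Sem with asparaginase lay above Nalm6 with asparaginase. SLC1A5, the glutamine carrier, rose in Sem to 182, 186 and 184 FPKM, against 98.7, 93.5 and 103 untreated, and in Nalm6 the groups overlapped, with 82.1, 99.96 and 100.2 with asparaginase and 92.5, 72.8 and 88.7 untreated. The SLC1A5 difference was 0.75 ± 0.13 (adjusted p = 0.00014). SLC43A1, a carrier of large neutral amino acids, rose more in Nalm6 (-0.61 ± 0.090), as did SLC3A2, the shared heavy chain of several carriers (-0.31 ± 0.068, adjusted p = 0.0017), but the difference of SLC3A2 was 0.24 with ibrutinib present (adjusted p = 0.0078).

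The cytoplasmic tRNA synthetases, which load amino acids onto tRNA, had 14 positive and 0 negative differences among 20, with a median of 0.41. In Sem 12 rose and 3 fell, against 9 and 11 in Nalm6 (6 fell there under TPM rescaling and under quantile normalization), where the median of -0.15 turned to 0.13 under quantile normalization. YARS (0.57 in Sem and -0.14 in Nalm6), EPRS (0.40 and -0.23) and TARS (0.24 and -0.17) had opposite responses. WARS, the tryptophan enzyme, had the largest rise of the 20 in both lines, 2.42 in Sem and 2.31 in Nalm6, and NARS, the asparagine enzyme, rose by 0.41 and 0.25. Of 13 eIF2 kinases and translation factors, 7 differences were positive and 0 negative, with EIF2B3, a subunit of the eIF2 exchange factor, changing by -0.13 in Sem, which did not pass, and -0.97 in Nalm6. The EIF2B3 difference was 0.84 ± 0.098 (adjusted p = 2.7e-06).

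Chaperones fell in Nalm6 far more than in Sem. Of 14 chaperones of the endoplasmic reticulum, 6 fell and 1 rose in Sem, 13 fell and 1 rose in Nalm6, and 13 differences were positive and 0 negative. HSPA5 (ENSG00000044574, chromosome 9, 125234853 to 125241330, minus strand), the chaperone BiP of this compartment, had 96.3, 99.6 and 102 FPKM in Sem with asparaginase and 118, 123 and 123 in untreated Sem, against 42.6, 43.3 and 41.4 in Nalm6 with asparaginase and 157, 167 and 160.0 in untreated Nalm6. The HSPA5 difference was 1.61 ± 0.050 (adjusted p = 7.9e-14). Untreated Nalm6 had the highest level and Nalm6 with asparaginase the lowest, with both Sem groups between them. In the same list's sensors and degradation genes, 4 differences were positive and 3 negative. EDEM1, a lectin that extracts misfolded glycoproteins, rose in both lines, to 40.6, 38.6 and 40.0 FPKM in Sem with asparaginase against 18.0, 19.2 and 19.1 untreated, and more in Nalm6, to 113, 124 and 124 with asparaginase against 36.8, 35.8 and 38.9 untreated (difference -0.62 ± 0.065). HERPUD1, of the same degradation route, rose more in Sem (0.66).

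Heat shock proteins of the cytosol and mitochondria had 14 positive and 0 negative differences among 16, with 13 lower and 1 higher in Sem and 15 lower in Nalm6. HSPA8, the constitutive cytosolic chaperone, had 357, 357 and 380.0 FPKM in Sem with asparaginase and 459, 464 and 472 in untreated Sem, against 186, 173 and 181 in Nalm6 with asparaginase and 631, 669.8 and 679 in untreated Nalm6. The HSPA8 difference was 1.52 ± 0.070 (adjusted p = 1.3e-11). HSPA9, the mitochondrial HSP70, was the member that rose in Sem (0.18), and it changed by -0.19 in Nalm6. Proteasome subunits fell in both lines, 25 of 30 in Sem (14 under quantile normalization) and 29 of 30 in Nalm6, and 25 differences were positive and 0 negative (PSMD1 1.05 ± 0.056).

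Growth and replication genes also fell more in Nalm6. MYC-induced genes had 23 positive and 0 negative differences among 24, with 11 lower in Sem (6 under TPM rescaling and 4 under quantile normalization) and 23 lower in Nalm6, and a median difference of 0.70. MYC averaged 157 ± 1.696 with asparaginase and 154 ± 0.626 FPKM untreated in Sem, where it was not called (adjusted p = 0.87), and 225 ± 19.1 with asparaginase and 334 ± 22.3 FPKM untreated in Nalm6, where it fell. The MYC difference was 0.60 ± 0.11 (adjusted p = 0.00042). TFRC, the transferrin receptor, changed by -0.79 in Sem and -1.79 in Nalm6 on the log2 scale (difference 1.00 ± 0.072). Of 35 DNA replication genes, 24 fell in Sem (10 under TPM rescaling and 13 under quantile normalization) and 34 in Nalm6, and 30 differences were positive and 0 negative, among them CDC6, which loads the replicative helicase (0.98 ± 0.080). Of 18 enzymes of purine and pyrimidine synthesis, 14 differences were positive, among them that of NME1, a nucleoside diphosphate kinase (1.00 ± 0.14), and 1 was negative.

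Mitosis genes had differences in both directions. Of 29, 28 fell in Sem and 22 fell and 1 rose in Nalm6, and 8 differences were positive and 9 negative, with medians of -0.37 in Sem and -0.43 in Nalm6. CENPA, the centromere histone, fell in Sem to 15.0, 14.3 and 18.0 FPKM with asparaginase, against 24.1, 22.4 and 25.9 untreated, while it had 10.0, 10.4 and 10.9 with asparaginase and 10.9, 11.4 and 11.6 untreated in Nalm6. The CENPA difference was -0.49 ± 0.12 (adjusted p = 0.0048). MAD2L1, of the spindle checkpoint, changed by -0.37 in Sem and by -0.95 in Nalm6 on the log2 scale, so it fell more in Nalm6 (difference 0.58 ± 0.093). PSRC1, a microtubule protein, fell in Sem alone, to 4.49, 5.18 and 5.395 FPKM against 10.6, 8.36 and 9.17 untreated, and had 9.54, 8.67 and 9.97 with asparaginase and 9.59, 9.59 and 8.06 untreated in Nalm6. The PSRC1 difference was -0.83 ± 0.13 (adjusted p = 4.9e-05). Among G1 regulators CCNE2, a cyclin of the S phase entry, fell in Nalm6 (difference 0.70 ± 0.098).

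Sterol synthesis genes fell in both lines, 22 of 27 in each, with 14 positive and 3 negative differences. HMGCS1, an early enzyme of cholesterol synthesis, had 50.1, 48.1 and 50.1 FPKM in Sem with asparaginase and 79.4, 75.8 and 79.9 in untreated Sem, against 19.6, 18.1 and 18.2 in Nalm6 with asparaginase and 76.3, 85.8 and 77.2 in untreated Nalm6. The HMGCS1 difference was 1.38 ± 0.076 (adjusted p = 1.9e-10). Of 11 fatty acid genes 8 differences were positive and 0 negative, and the desaturase SCD changed by -0.66 in Sem and -1.72 in Nalm6. Promoters of HMGCS1 and TM7SF2 held no match to the sterol regulatory element (TCACNCCAC, either strand), which 1.13% of all windows hold.

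Glycolysis and pentose phosphate genes had 18 positive and 1 negative differences among 24, and nuclear genes of the respiratory chain 11 and 0 among 31 (7 and 3 under quantile normalization, and 5 and 1 without the farthest library of each group). The called share of the respiratory chain genes was near the 33.5% of all genes. LDHB was variable in untreated Sem, with 10.1, 8.76 and 9.27 FPKM with asparaginase and 14.1, 6.34 and 13.2 untreated, against 7.46, 5.14 and 6.01 with asparaginase and 13.2, 19.1 and 13.7 untreated in Nalm6. The LDHB difference was 1.01 ± 0.31 (adjusted p = 0.017). Without the library of each group that correlated least with the others of its group, the LDHB difference was 0.59 and not called (adjusted p = 0.086). SLC2A3, a glucose carrier, rose in Nalm6 alone (difference -0.80 ± 0.12), and ATP5MC1, a subunit of ATP synthase, fell more in Nalm6 (1.14 ± 0.14). Mitochondrial messenger RNAs had 0 positive and 5 negative differences among 13, a called share near the 33.5% of all genes. MT-CO2 was at -0.61, which was not called with no filter on low values (adjusted p = 0.16). Quantile normalization gives equal ranks equal values, so the lack of an MT-CO2 difference under it was not informative. Mitochondrial transcripts took 2.35% to 2.60% of reads in Sem with asparaginase and 2.61% to 2.81% in untreated Sem, against 4.50% to 4.81% and 3.58% to 3.91% in Nalm6, and their part in the negative differences was not tested. NRF2 and glutathione genes had 12 positive and 2 negative differences among 16. Of these, 3 rose and 6 fell in Sem, a split that turned to 5 and 3 under TPM rescaling and 4 and 2 under quantile normalization, and 3 rose and 11 fell in Nalm6, and FTH1, the ferritin heavy chain, was an exception that rose there (0.64, difference -0.46 ± 0.092).

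Genes of quiescence and FOXO factors had 0 positive and 11 negative differences among 14, with a median of -1.0. In Nalm6 12 rose and 0 fell, while in Sem 2 rose and 4 fell, and CCNG2, BTG2, PINK1 and YPEL3 had opposite responses. YPEL5, a relative of YPEL3, had 10.3, 9.16 and 11.2 FPKM with asparaginase and 9.03, 9.33 and 8.28 untreated in Sem, where the groups overlapped, and rose in Nalm6, to 16.4, 16.2 and 14.8 with asparaginase against 2.27, 2.86 and 3.11 untreated. The YPEL5 difference was -1.98 ± 0.13 (adjusted p = 3.0e-09). Untreated Nalm6 had the lowest level, and its level with asparaginase exceeded that of both Sem groups. TXNIP, an inhibitor of glucose uptake, rose in both lines and more in Nalm6 (-0.94 ± 0.096), and CDKN1B, the inhibitor p27, changed by 0.0032 in Sem, which did not pass, and rose by 0.92 in Nalm6. Among 18 p53 targets 2 differences were positive and 8 negative, with CDKN1A the member with opposite responses and AEN, a nuclease, falling more in Nalm6 (0.40 ± 0.096). MAP1LC3B, the autophagosome protein LC3B, had 13.8, 12.9 and 14.2 FPKM with asparaginase and 12.6, 13.1 and 15.2 untreated in Sem, and rose in Nalm6 to 45.0, 51.2 and 48.5 with asparaginase, against 14.3, 14.7 and 14.2 untreated. The MAP1LC3B difference was -1.67 ± 0.090 (adjusted p = 1.5e-10). Of 23 autophagy and lysosome genes 1 difference was positive, that of ATG5 (0.32), and 6 were negative, together no larger a share than the 33.5% of all genes.

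Genes of the pre-B cell receptor diverged as well. Of 19 members 4 differences were positive and 10 negative. CD79A (ENSG00000105369, chromosome 19, 41877120 to 41881372, plus strand), a signalling chain of the receptor, had 108, 109 and 115 FPKM in Sem with asparaginase and 105, 95.6 and 111 in untreated Sem, against 206, 251 and 252 in Nalm6 with asparaginase and 79.4, 61.5 and 82.1 in untreated Nalm6. The CD79A difference was -1.56 ± 0.15 (adjusted p = 2.0e-07). The Sem groups overlapped, and Nalm6 with asparaginase stood above all others. CD79B, its partner, changed by -0.53 in Sem and 0.53 in Nalm6. CD72, an inhibitory co-receptor, had 26.4, 27.0 and 26.5 FPKM with asparaginase and 23.2, 23.2 and 21.9 untreated in Sem, and 28.4, 29.1 and 29.2 with asparaginase and 5.21, 5.25 and 5.39 untreated in Nalm6. The CD72 difference was -2.03 ± 0.079 (adjusted p = 1.4e-12). Untreated Nalm6 was far below Sem in CD72, and Nalm6 with asparaginase was above it. The surrogate light chain gene IGLL1 fell in both lines, with log2 effects of -1.08 in Sem and -1.47 in Nalm6 (difference 0.39 ± 0.089), and its difference was 1.84 with ibrutinib present (adjusted p = 3.2e-11). CD22, another inhibitory co-receptor, changed sign between the 2 sets of libraries, at 0.40 ± 0.089 without ibrutinib and -0.67 with it (adjusted p = 0.0016 and 7.1e-06). BTK itself hardly moved, with a difference of -0.15 ± 0.050 (adjusted p = 0.031) that was lost with voom (0.096) and without any of 5 single libraries.

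Of 10 MHC class II genes, which present antigen, 5 rose in Sem and 9 in Nalm6, and the difference was negative for 9 and positive for 1, HLA-DQB1, which Nalm6 hardly expressed. HLA-DMB, which helps load peptides, had 1.07, 1.34 and 1.24 FPKM with asparaginase and 0.920, 0.786 and 1.19 untreated in Sem, and rose in Nalm6 to 6.32, 6.44 and 6.26 with asparaginase, against 1.59, 1.99 and 1.29 untreated. The HLA-DMB difference was -1.32 ± 0.13 (adjusted p = 2.9e-07). CD74, the invariant chain, had a difference of -0.49 ± 0.13, and POU2AF1, a B cell coactivator, one of -0.77 ± 0.12. ID3, an inhibitor of E proteins, fell in both lines, in Sem to 132, 131 and 139.9 FPKM with asparaginase against 180.2, 161 and 188 untreated, and in Nalm6 to 12.5, 12.1 and 13.3 with asparaginase against 59.2, 49.7 and 58.9 untreated. The ID3 difference was 1.67 ± 0.092 (adjusted p = 1.9e-10). Among 14 BCL2 family genes 6 differences were positive (3 under TPM rescaling) and 4 negative. BMF, a killer protein of the BH3-only class, averaged 32.9 ± 1.24 with asparaginase and 24.6 ± 0.548 FPKM untreated in Sem, against 3.01 ± 0.462 with asparaginase and 0.442 ± 0.0278 FPKM untreated in Nalm6 (difference -1.07 ± 0.090). BCL2L11, the related killer BIM, fell in Nalm6 alone (difference 0.54 ± 0.085), and BCL2, the survival gene, rose by 0.22 in Sem and changed by -0.30 in Nalm6. JMJD1C, a demethylase that KMT2A leukaemia depends on, rose more in Nalm6 (-1.01 ± 0.11), and MEIS1, a partner of HOXA9, was not called in Sem and had 0 reads in Nalm6. Outside these lists, ULBP2, a ligand of natural killer cells, was called in Sem alone, where it rose, to 2.25, 2.20 and 2.61 FPKM with asparaginase against 1.39, 0.502 and 0.903 untreated, with 5.64, 4.61 and 4.70 with asparaginase and 4.09, 4.92 and 5.93 untreated in Nalm6. The ULBP2 difference was 0.81 ± 0.24 (adjusted p = 0.014). It was not called without the farthest library of each group (0.74, adjusted p = 0.072) or with ibrutinib present (0.28, adjusted p = 0.39). NEIL1, a DNA repair glycosylase, rose in Nalm6 alone (difference -1.90 ± 0.14).

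**Figure D5:**
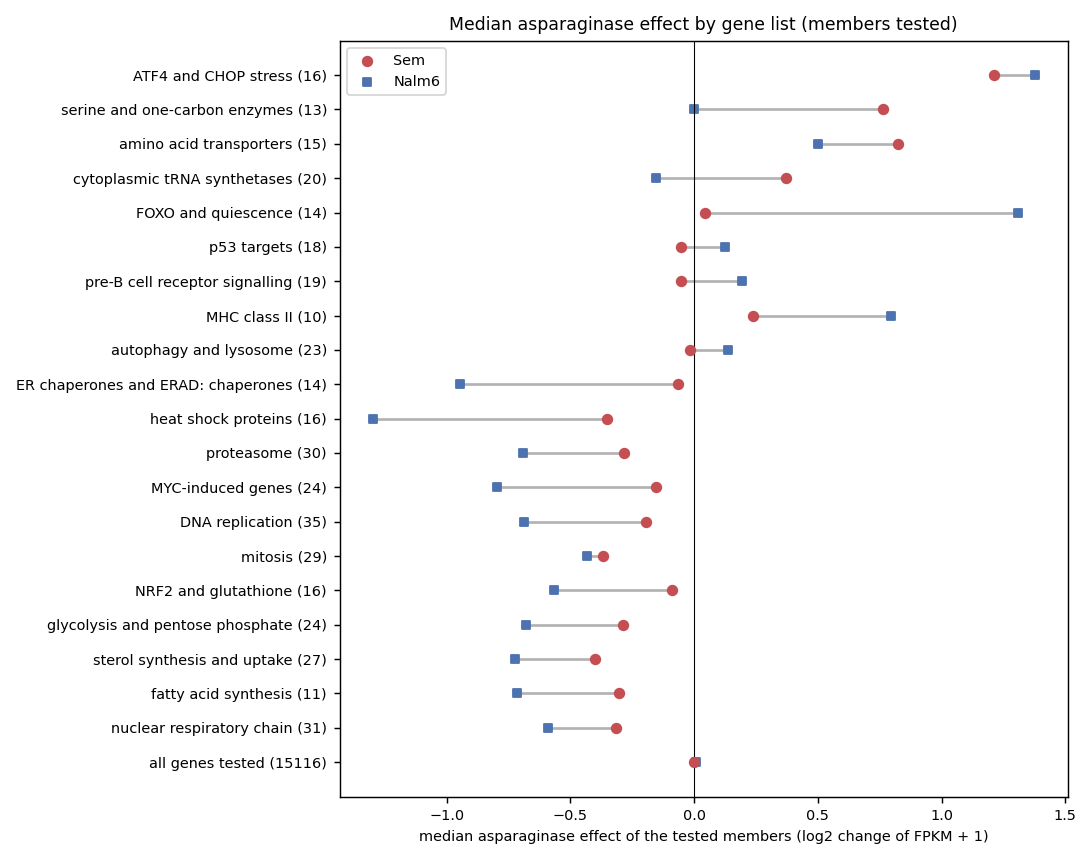
Median asparaginase effect (log2 change of FPKM + 1) of the tested members of 20 gene lists and of all 15116 genes, in Sem (circles) and Nalm6 (squares), with the number tested in brackets. Chaperone, proteasome, MYC-induced and DNA replication medians lie below 0 in both lines and lower in Nalm6, the quiescence list is high in Nalm6 and near 0 in Sem, and the Sem medians of the pre-B cell receptor, autophagy and NRF2 lists and the Nalm6 medians of the serine and tRNA synthetase lists change sign under TPM rescaling or quantile normalization.

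The 758 genes expressed in a single line stayed under a mean of 1 FPKM in the other, and their median size of difference was 0.43 for the 306 of Sem and 0.62 for the 452 of Nalm6. UNC5B (ENSG00000107731, chromosome 10, 71212570 to 71302864, plus strand), a netrin receptor, had 9.32, 10.4 and 10.3 FPKM in Sem with asparaginase and 1.51, 1.49 and 1.44 in untreated Sem, against 0, 0.0433 and 0.00766 in Nalm6 with asparaginase and 0, 0 and 0 in untreated Nalm6. TPBG, a surface antigen of embryonic and tumour cells, had 23.8, 23.4 and 22.8 FPKM with asparaginase and 6.38, 6.07 and 6.21 untreated in Sem and 0 reads in Nalm6. PLXNA1, a semaphorin receptor, rose in Sem by 2.05 and TM6SF1, a lysosomal membrane protein, by 1.71, and both stayed under 1 FPKM in Nalm6. Below that level PLXNA1 also rose in Nalm6, by 0.30 (adjusted p = 0.00029), with means of 0.781 FPKM with asparaginase and 0.445 untreated. PRPS2, which starts nucleotide synthesis, averaged 17.3 ± 0.735 with asparaginase and 20.2 ± 0.106 FPKM untreated in Sem and had 0 reads in Nalm6. The PRPS2 difference was not called under TPM rescaling (adjusted p = 0.078), with a pseudocount of 0.1 (0.13) or with voom (0.96). In the other direction, H1F0, a linker histone of resting cells, had reads in 1 Sem library alone, against 46.7, 42.8 and 43.2 FPKM in Nalm6 with asparaginase and 10.1, 8.88 and 8.95 in untreated Nalm6. ENPP2, the secreted enzyme autotaxin, rose in Nalm6 by 2.19 and CALML6, a calmodulin-like gene, by 2.07, and neither reached 1 FPKM in Sem. OSCAR, an immunoglobulin-like receptor, had 1.02, 0.950 and 0.920 FPKM with asparaginase and 0.0844, 0 and 0.117 untreated in Sem, against 47.0, 58.0 and 55.2 with asparaginase and 6.30, 6.86 and 5.84 untreated in Nalm6. It rose in both lines, and its difference of -2.01 ± 0.17 depended on the scale, since with voom on recovered reads it was 0.94 (adjusted p = 0.50). The differences of UNC5B (1.24, adjusted p = 0.35) and H1F0 (-1.68, adjusted p = 0.14) were not called with voom either. RAG1, of the recombinase that assembles immunoglobulin genes, averaged 0.0374 with asparaginase and 0.0670 FPKM untreated in Sem, against 55.8 ± 1.79 with asparaginase and 75.6 ± 3.07 FPKM untreated in Nalm6, with a difference of 0.39 ± 0.057 and -0.04 with ibrutinib present (adjusted p = 0.62).

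Some markers of other cells were present. TRAC, the constant gene of the T cell receptor alpha chain, averaged 87.6 ± 2.34 with asparaginase and 93.3 ± 5.34 FPKM untreated in Sem, against 7.41 ± 1.97 with asparaginase and 3.13 ± 0.480 FPKM untreated in Nalm6, where it rose. The TRAC difference was -1.10 ± 0.19 (adjusted p = 0.00021). The summed level of the 8 T and NK cell markers was 102 to 105 FPKM with asparaginase and 109 to 124 FPKM untreated in Sem, and 8.16 to 12.05 and 5.18 to 6.18 FPKM in Nalm6, while CD3D and CD3E had 0 reads. The 8 myeloid markers summed to 3.42 to 3.75 FPKM with asparaginase and 4.88 to 6.05 FPKM untreated in Sem, where CSF1R made up most of it, and to 4.23 to 4.48 and 12.3 to 14.4 FPKM in Nalm6, where LYZ did. LYZ fell in both lines, and its difference of 0.86 ± 0.23 was not called with voom (0.41, adjusted p = 0.61), with a pseudocount of 0.1 (0.50, 0.62) or without the farthest library of each group (0.67, 0.12). CSF1R fell in Sem (-0.40), and SDC1, the plasma cell antigen CD138, fell in Nalm6 (-1.13) and was near 0 in Sem. The part of these markers in the results above was not tested.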

How the data were processed

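RNA-seq of 24 libraries was analysed, of which 12 enter the comparison. The submitters' processing notes name fastp, STAR, featureCounts and the build hg38, with versions not given in the sources used here. The deposited table holds the authors' FPKM for 58735 genes, with a scaling factor of 0.919 to 1.09 per library whose method is not given in the sources used here. All 299165 values of 1 or more had lost their decimal point. They were restored as whole reads times a step per gene and library, taking the most probable power of 10, and 401 had a posterior under 0.99. Tests used limma 3.58.1 (R 4.3.3) with trend on log2(FPKM + 1) over 8 group means of all 24 libraries, after a filter of 1 FPKM in at least 3 libraries that left 15116 genes, two-sided, with Benjamini-Hochberg adjustment over them and a threshold of 0.05. The files' genes matched GRCh38 coordinates with GENCODE 29. Count tests were not the main test because the deposited unit is not counts, and voom on recovered reads was an alternative. A gene counted as expressed in a line with a mean of 1 FPKM in either group of it.

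Named genes are the largest called differences of each class (8 for each opposite direction, 5 for each same-direction class, 4 for each of the others), a fixed set of response genes, and the member with the largest called difference in each direction of 39 lists. BCL2, CD79B, CDKN1B, CEBPB, EPRS, HERPUD1, HSPA9, MTHFD2, NARS, PINK1, SHMT2, TARS, TYMS and WARS fall outside it and were chosen after their values were seen. The samples compared, and the gene lists, were chosen with earlier results of these data known. Promoters are from RefSeq (GRCh38.p14), which held all 8 named genes of the ATF4 list and 2 of the 3 of the sterol list. Scripts were tested on simulated data. A few named genes are not reported here.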

Additional observations from a re-analysis of the deposited data

Results flagged for a closer look

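The test of the line difference was passed by 5062 genes, of which 174 had opposite responses in the lines. The counts that follow cover the genes named by rule and leave out those chosen after their values were seen. A difference between the lines was tested and called for 10 that rose in Sem and fell in Nalm6 and 10 that fell in Sem and rose in Nalm6. It was called for 8 that changed the same way and more in Sem and 27 that did so more in Nalm6. The others were 8 called in Sem alone, 23 called in Nalm6 alone, 8 expressed in Sem alone and 6 expressed in Nalm6 alone. The groups hold 3 libraries each, too few for a test of single outlying libraries.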

How the results depend on the processing

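The counts of called genes for the line difference, for Sem and for Nalm6 stayed within 1.5 times those reported under every alternative run. The 174 opposite responses became 263 with a correction for GC content and length, 271 with that correction and a replicate block, and 11 when each line's change had to reach 0.5. Leaving out 1 library at a time gave 4543 to 4909 genes for the difference, 2457 to 3434 for Sem, 7435 to 8118 for Nalm6 and 121 to 172 opposite genes. The farthest library of each group was that with the lowest mean correlation with the others of its group. Without it, a choice made after seeing the data, these were 3945, 2826, 7250 and 126, and 93 of the 174 opposite genes were called again. Of the 174, 69 were called opposite again after TPM rescaling, 91 after quantile normalization and 156 with voom on recovered reads. Replicate numbers showed a weak pairing of libraries in Sem and no consistent one in Nalm6. Same-numbered deviations correlated at 0.055 to 0.080 in Sem, against -0.053 to -0.017 for other numbers. In Nalm6 they correlated at -0.16 to 0.027, against -0.13 to 0.23 for other numbers. Every library correlated best with its own number in Sem but not in Nalm6, and a replicate block gave 5148, 3445, 8113 and 182 genes. With voom, 5 named differences of genes expressed in 1 line turned sign, OSCAR to 0.94, CALML6 to 0.092, RAG1 to -0.41, HLA-DQB1 to -0.85 and SDC1 to -0.38, and the cause was not tested. Depth limits genes near 1 FPKM, the restored decimal points are uncertain in 103 tested genes, and without the uncertain values 173 opposite genes were called.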

Other observations

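Of 15 interferon response genes, 3 differences were positive and 5 negative, with STAT2, a signalling factor of interferon, at -0.91 ± 0.087 (log2, SE) and IFI44, an interferon-induced gene, at 1.18 ± 0.15. IFI44 had 1.11, 1.03 and 1.43 FPKM in Sem with asparaginase and 1.15, 1.40 and 1.08 in untreated Sem, against 3.24, 2.79 and 2.47 in Nalm6 with asparaginase and 7.34, 8.51 and 7.34 in untreated Nalm6. Of 12 host genes of small nucleolar RNAs, 6 rose and 1 fell in Sem, against 5 and 3 in Nalm6 (8 rose there under quantile normalization). In this list 3 differences were positive and 1 negative, together a share near the 33.5% of all genes. ZFAS1 had a difference of -0.40 ± 0.12 and SNHG8 one of 0.68 ± 0.17. The ZFAS1 difference was not called with the 12 libraries alone (adjusted p = 0.071) or without replicate 3 of untreated Nalm6 (0.052). Among 19 genes of nutrient sensing by mTORC1, 2 differences were positive and 5 negative, together a share near the 33.5% of all genes. FLCN, the folliculin gene, had a difference of -0.67 ± 0.097 and RRAGD, a lysosomal GTPase, one of 0.50 ± 0.090. Among 16 genes of ERK feedback and the immediate early response, 2 differences were positive and 3 negative, together a share near the 33.5% of all genes. SPRY4, a feedback inhibitor, had a difference of 0.47 ± 0.096 and JUND, a transcription factor, one of -1.16 ± 0.15. The SPRY4 difference was not called with a pseudocount of 0.1 or with voom (adjusted p = 0.11 in each).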
